A study of Mus musculus with 24 samples.

Results

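The comparison described here is that of microglia from operated mice given ND-Exos with microglia from operated mice given saline. It rests on 12 of the 24 libraries of the series, 6 in each group, chosen by their labels (BCAS+ND-Exos and BCAS+PBS) and not by any measured value. All mice were wild type (WT), and their age is not given in the sources used here. BCAS commonly stands for stenosis of both carotid arteries, a model in which narrowed neck arteries lower the blood flow to the forebrain. The group called BCAS below had the operation and saline (PBS), without exosomes. The ND-Exos group had the operation and ND-Exos injected into a tail vein, 100 µg at a time, with 3 days between injections over 28 days. Both groups carry the label of day 28, so the operation is shared and the injected material differs. The series title speaks of foam cell-derived exosomes (foam cells are macrophages filled with lipid), and the labels neither spell out ND nor give the cells that made these exosomes. Microglia were sorted by FACS, with a gate that the labels do not describe. The other 12 libraries, from sham-operated mice given saline (Sham) and operated mice given WD-Exos, entered the shared estimate of spread and are used here as reference levels. Nothing in the labels ties the 6 samples of a group to separate mice, so the p-values rest on a spread between samples that may be technical.

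Microglia are the resident macrophages of the brain. They sense damage through pattern recognition receptors and answer with cytokines, with interferons and with the removal of debris in lysosomes. Type I interferon binds its receptor on the cell surface, and the receptor's kinases switch on a complex that contains Irf9, which binds the promoters of interferon-stimulated genes. These genes code for antiviral effectors and for parts of the major histocompatibility complex (MHC) class I pathway, and a small set of microglia with high levels of them is known from injured and ageing brain. Exosomes are small vesicles that cells release and other cells, phagocytes above all, take up.

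Library totals were 24844909 to 27483454 estimated counts with ND-Exos and 24277722 to 28892423 in BCAS (exact two-sided permutation p = 0.844, adjusted p = 0.844 over 2 measures). The number of genes with a count was 9186 to 10603 and 8515 to 9888 (exact two-sided permutation p = 0.264, adjusted p = 0.528). Of the genes tested, 47.1% had no count in at least 1 of the 12 libraries. The sum over 16 microglial markers was 59271 to 99800 CPM (read counts scaled to a common library size, with the TMM factors of edgeR) in the 12 libraries, and the defining markers P2ry12 and Cx3cr1 were at 2966 and 2915 CPM or more in each. A pair of libraries stood apart. BCAS replicate 2 had the lowest sum of oligodendrocyte markers of the 12 (1581 CPM) and the highest immediate early score (7.89). By mean log2(CPM + 1) of the oligodendrocyte markers it was not the lowest (2.92, against 2.83 in ND-Exos replicate 4). ND-Exos replicate 3 had the most genes with a count (10603) and the highest mean log2(CPM + 1) of oligodendrocyte markers (8.53). Some results are therefore also given without both, though not every result that moves in that setting.

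Of 10219 genes tested with the quasi-likelihood test of edgeR and Benjamini-Hochberg adjustment, 2 passed an adjusted p of 0.05, which is 0.0196% of those tested. Gm20594 rose and Lgals3bp fell with ND-Exos. The next smallest adjusted p was 0.492. Without adjustment, 243 genes (2.38%) were higher and 214 (2.09%) lower with ND-Exos at a p under 0.05, which is 457 where chance alone gives about 511. Among the 1423 genes with a mean of at least 100 CPM, 27 were higher and 79 lower at that p, and among the others 216 were higher and 135 lower. The median log2 fold change over all genes tested was 0.005. The 6 libraries of each group did not overlap for 10 higher genes (0.0979%) and 9 lower genes (0.0881%). Among 10219 genes some separate in this way by chance alone, and whether these are more than that was not tested. The median standard error (SE) of a log2 fold change was 0.241 for genes of at least 100 CPM and 1.1 over all genes, so for many genes of low level a difference of 2-fold was within 1 SE.

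Lgals3bp codes for galectin-3-binding protein, a secreted glycoprotein that interferon induces. Its level ran from 590 CPM through a median of 1297 to 1951 CPM in BCAS, and from 289 through 352 to 584 CPM with ND-Exos. The groups did not overlap, and the highest ND-Exos library (replicate 5) lay just under the lowest BCAS library (replicate 2). The mean fell from 1303 ± 526 to 380 ± 113 CPM (SD, n = 6), a log2 fold change of -1.78 (SE 0.30, edgeR adjusted p = 0.0115), which left 29.2% of the BCAS level. Lgals3bp was also low in Sham (606 ± 199 CPM) and high with WD-Exos (1719 ± 831 CPM). In the bulk RNA of sorted cells, fewer cells with a high level and less RNA in each cell cannot be told apart. The Lgals3bp log2 fold change lost its call without BCAS replicate 5 (-1.62, adjusted p = 0.0599) and without ND-Exos replicate 1 (adjusted p = 0.0626), 2 (0.059) or 6 (0.0693). The call was lost as well when detected genes per library entered the fit as a covariate (-1.67, adjusted p = 0.0741) and with voom (-1.72, adjusted p = 0.234).

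**Figure D1:**
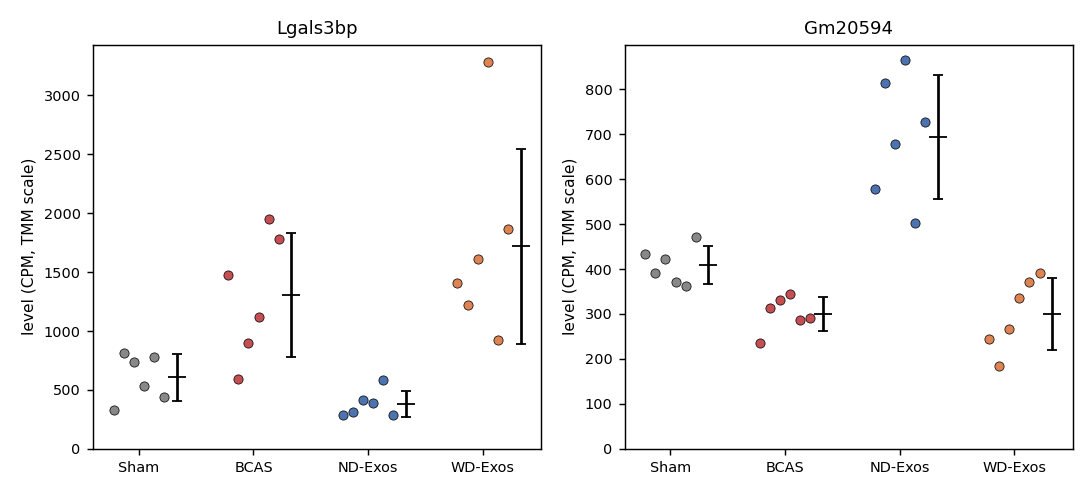
Levels of Lgals3bp and Gm20594 in CPM (vertical axis) in each of 24 libraries, by group; points are libraries in replicate order, and the cross bar with whiskers is the mean ± SD of 6 libraries. For Lgals3bp all 6 ND-Exos points lie below the lowest BCAS point (590 CPM), and for Gm20594 all 6 lie above the highest BCAS point (344 CPM).

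The window upstream of the Lgals3bp start site is shown because interferon-stimulated genes as a list lay lower along with it. It is set beside that of Ifit3, a gene of the same list with a log2 fold change of -1.09 (SE 0.61, adjusted p = 1), and that of H2-D1, a class I heavy chain. The sequences are RefSeq's (GRCm38.p6), 250 bases ending just before the annotated start, 5′ to 3′ in the direction of the gene. Capitals mark matches, on either strand, to GAAANNGAA, the core of the interferon-stimulated response element, or to AANNGAAA, a shorter consensus for interferon regulatory factors that was added after these sequences had been seen.
Lgals3bp, chr11:118401960-118402209, minus strand: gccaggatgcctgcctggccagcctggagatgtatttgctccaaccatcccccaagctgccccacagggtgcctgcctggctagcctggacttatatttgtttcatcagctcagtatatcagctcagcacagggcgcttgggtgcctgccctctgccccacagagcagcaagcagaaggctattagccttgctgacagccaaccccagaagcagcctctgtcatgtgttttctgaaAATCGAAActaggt
Ifit3, chr19:34583279-34583528, plus strand: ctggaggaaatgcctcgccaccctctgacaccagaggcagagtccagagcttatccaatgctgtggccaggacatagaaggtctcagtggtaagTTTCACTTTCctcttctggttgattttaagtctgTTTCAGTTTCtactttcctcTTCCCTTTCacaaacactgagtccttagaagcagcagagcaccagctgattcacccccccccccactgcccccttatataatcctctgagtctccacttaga
H2-D1, chr17:35262844-35263093, plus strand: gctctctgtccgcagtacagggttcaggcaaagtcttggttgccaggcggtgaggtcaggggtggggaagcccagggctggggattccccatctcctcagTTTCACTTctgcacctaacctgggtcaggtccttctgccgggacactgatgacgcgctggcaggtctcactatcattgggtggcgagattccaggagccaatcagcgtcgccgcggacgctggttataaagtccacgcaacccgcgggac
The windows of Lgals3bp and H2-D1 each held 1 match to AANNGAAA and none to GAAANNGAA, whereas that of Ifit3 held matches to both, in 3 stretches. AANNGAAA was in 21.3% of all 32851 RefSeq windows, in 23 of 37 windows (62.2%) of the 31 interferon-stimulated effectors that had one, and in 11 of 19 windows (57.9%) of 18 class I genes. GAAANNGAA, which can overlap it, was in 7.13% of all windows, in 15 of the 37 (40.5%) and in 4 of the 19 (21.1%). The STAT motif TTCNNNGAA was in 7.02% of all windows, 6 of the 37 and 2 of the 19. Of the NF-kB motifs, GGACTTTCC was in 0.283% of all windows and in 1 class I window, that of B2m, and GGAATTTCC was in 0.286% of all windows and in 0 of either list. The AP-1 motif TGACTCA (4.46% of all windows) was in 5 of the 37 and 0 of the 19. The antioxidant response core TGACNNNGC (10.2% of all windows) was in 5 of the 37 and 5 of the 19. These are matches of letters in a fixed window and were not tested.

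Gm20594 is an annotated protein-coding gene of chromosome 6 (GENCODE vM21, GRCm38, chr6:79817916-79818364, plus strand), for which RefSeq lists the synonym Mtrnr2l. Its level was 235 CPM at the lowest, 302 at the median and 344 at the highest in BCAS, and 502, 702 and 865 CPM with ND-Exos. Every ND-Exos library lay above every BCAS library, and also above every Sham and WD-Exos library (highest 472 and 392 CPM). The mean rose from 300 ± 38.8 to 694 ± 138 CPM (SD, n = 6), with a log2 fold change of 1.21 (SE 0.17, edgeR adjusted p = 0.00109). It was called under all 22 alternatives, with log2 fold changes of 1.13 to 1.30.

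The coding part of Gm20594 is nearly the same as a stretch of the mitochondrial 16S ribosomal RNA, mt-Rnr2, so reads of one can be counted for the other. Over 95 of its 111 coding bases, 92 were identical (96.8%), with 3 mismatches, marked in capitals.
Gm20594, chr6:79818253-79818347, plus strand: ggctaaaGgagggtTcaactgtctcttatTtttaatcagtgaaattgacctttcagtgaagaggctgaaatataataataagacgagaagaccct
mt-Rnr2, chrM:2072-2166, plus strand: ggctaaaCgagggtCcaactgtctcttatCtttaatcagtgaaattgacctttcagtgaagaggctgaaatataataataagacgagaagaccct
The likeness was not confined to the coding part: the Gm20594 transcript of 449 bases matched mt-Rnr2 along 435 aligned bases at 88.5% identity. No other gene with values in the table had a transcript with at least 80% identity to a mitochondrial transcript over at least 100 bases. Mitochondrially encoded genes are not analysed here, so whether the level of Gm20594 follows that of mt-Rnr2 was not tested.

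The interferon-stimulated effectors lay lower with ND-Exos as a list. Of 36 members tested, 28 were lower and 8 higher, with a median log2 fold change of -0.93 against 0.005 over all genes. Of the 36, 10 (27.8%) were lower at an unadjusted p under 0.05 and 0 higher, against 2.09% and 2.38% of all genes tested. Lgals3bp was the only member to pass after adjustment. The median stayed negative under the 22 alternatives (-1.12 to -0.49, the latter without BCAS replicate 6), and the count of 10 ran from 5 with only genes of at least 100 CPM to 12 with voom. This list was chosen with earlier results of these libraries known, so its direction is not independent evidence.

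Ly6e, a membrane protein that restricts viral entry, was the most abundant of the 10. It stood at 4009 CPM at the lowest, 5667 at the median and 6770 at the highest in BCAS, and at 2292, 3545 and 4101 CPM with ND-Exos. In 5 of 6 ND-Exos libraries it was below every BCAS library (log2 fold change -0.75, SE 0.19, edgeR adjusted p = 0.577). Ifi27l2a, a small interferon-induced membrane protein of mitochondria, ranged from 46.5 to 275 CPM in BCAS (median 189) and from 16.6 to 91.2 CPM with ND-Exos (median 38.2). The groups overlapped through BCAS replicate 4, the lowest of its group, and the log2 fold change was -1.99 (SE 0.51, adjusted p = 0.577). Bst2, which tethers budding virus to the cell, stood at 214 ± 114 CPM in BCAS and 95.1 ± 29.1 CPM with ND-Exos, and all 6 ND-Exos values lay inside the BCAS range. Trim30a, an interferon-induced ubiquitin ligase, stood at 114 ± 23.9 and 58.0 ± 32.9 CPM, with 5 of 6 ND-Exos libraries below every BCAS library.

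Slfn5, Oas1a, Rtp4 and Isg15 were also among the 10. Oas1a, which makes the messenger that activates RNase L, stood at 111 ± 42.6 CPM in BCAS and 29.4 ± 31.3 CPM with ND-Exos (log2 fold change -1.91, SE 0.87, adjusted p = 0.992). Slfn5 stood at 33.2 ± 35.6 and 4.22 ± 5.50 CPM and Rtp4 at 88.9 ± 56.4 and 38.9 ± 18.9 CPM. Isg15, a ubiquitin-like modifier, was near the limit of detection, at 4.81 ± 6.06 and 0.0664 ± 0.163 CPM. For Slfn5 and Isg15 BCAS replicate 6 was far above the other BCAS libraries (100 and 16.2 CPM). Slfn8, a relative of Slfn5 outside the list, stood at 64.5 ± 26.7 CPM in BCAS and 26.7 ± 11.1 CPM with ND-Exos (log2 fold change -1.27, SE 0.38, adjusted p = 0.577).

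**Figure D2:**
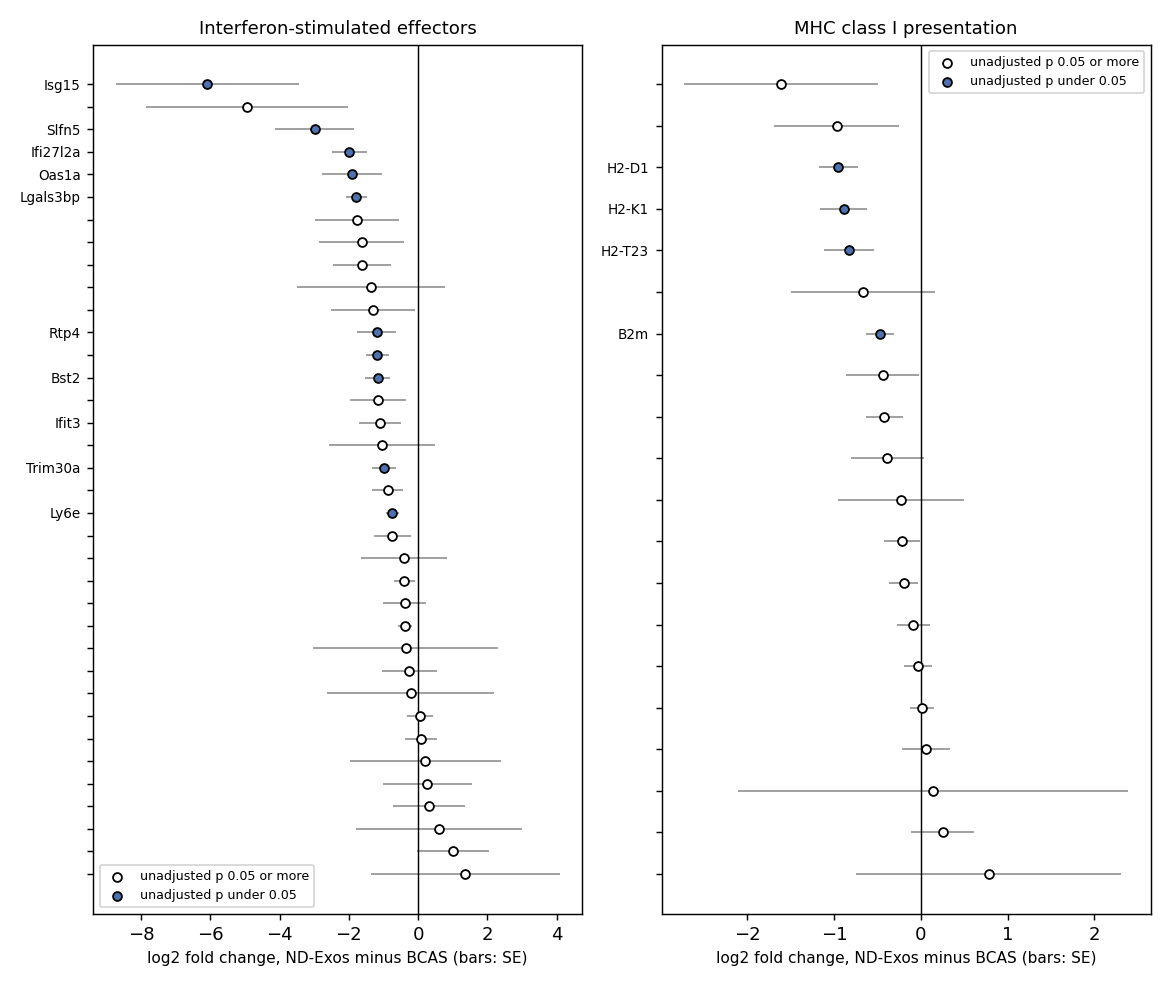
Log2 fold change with ND-Exos against BCAS (horizontal axis; bars are 1 SE) of the tested members of 2 gene lists, ordered by value; filled points had an unadjusted edgeR p under 0.05, and genes with values in the text are labelled. Of the interferon-stimulated effectors 28 of 36 lie left of 0, and of the class I genes 15 of 20, with wide bars for genes of low level.

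Upstream of the effectors, the receptors, kinases and factors of interferon signalling had a median of -0.25 over 19 members tested (12 lower). This list also holds Ifngr1 and Ifngr2, receptor genes of interferon gamma. Its median ran from -0.38 to -0.07 over the alternatives, the latter without BCAS replicate 3. By library its mean log2(CPM + 1) was 5.77 ± 0.28 in BCAS and 5.7 ± 0.45 with ND-Exos (SD, n = 6). At an unadjusted p under 0.05, 2 of the 19 were lower and 0 higher, against 2.09% and 2.38% of all genes tested. One of these 2 was Irf9, a factor of the complex that binds interferon-stimulated promoters and itself interferon-induced. It ran from 100 CPM through a median of 126 to 191 CPM in BCAS and from 55.2 through 78 to 112 CPM with ND-Exos. In 5 of 6 ND-Exos libraries Irf9 was below every BCAS library (132 ± 32.3 and 77.3 ± 21.1 CPM, log2 fold change -0.78, SE 0.27, adjusted p = 0.577).

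The cytosolic nucleic acid sensors had a median of -0.81 over 14 members tested, of which 11 were lower. Trex1, the exonuclease that clears DNA from the cytosol, stood at 124 ± 56.4 CPM in BCAS and 62.5 ± 30.0 CPM with ND-Exos (log2 fold change -0.99, SE 0.36, adjusted p = 0.596). Ifi204, a DNA sensor, stood at 107 ± 40.2 and 43.5 ± 46.1 CPM. Tbk1, the kinase that activates Irf3 below these sensors, stood higher. It ran from 18.5 to 52.5 CPM in BCAS and from 31.0 to 115 CPM with ND-Exos, with 5 of 6 ND-Exos libraries higher than any BCAS library (log2 fold change 1.21, SE 0.34, adjusted p = 0.577).

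MHC class I molecules show peptides from inside the cell to T cells. Of 20 class I presentation genes tested, 15 were lower with ND-Exos and the median log2 fold change was -0.31. Of the 20, 4 (20%) were lower at an unadjusted p under 0.05 and 0 higher, against 2.09% and 2.38% of all genes tested. The 4 were the heavy chains H2-D1, H2-K1 and H2-T23 and the light chain B2m. Among all genes of at least 100 CPM, to which these 4 belong, 79 of 1423 were lower and 27 higher at that p. H2-D1 ran from 2174 CPM through a median of 3885 to 6160 CPM in BCAS and from 1881 through 2123 to 2565 CPM with ND-Exos. The spread was wide in BCAS and narrow with ND-Exos, and 3 of 6 ND-Exos libraries lay below every BCAS library (log2 fold change -0.95, SE 0.23, adjusted p = 0.577). B2m ran from 13210 through 16125 to 18921 CPM and from 8651 through 11860 to 14350 CPM, with 5 of 6 ND-Exos libraries below every BCAS library (log2 fold change -0.47, SE 0.16, adjusted p = 0.577).

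H2-K1 stood at 1336 ± 717 and 721 ± 149 CPM and H2-T23 at 669 ± 212 and 377 ± 54.2 CPM. Reads of class I heavy chains can be split between near-identical family members, so their single values are uncertain. Psme1, a proteasome activator subunit that interferon gamma induces and that helps to cut peptides for class I, did not overlap between the groups, at 237 to 423 CPM in BCAS and 178 to 236 CPM with ND-Exos (log2 fold change -0.63, SE 0.22, adjusted p = 0.577). The peptide transporter and immunoproteasome genes of the list did not reach an unadjusted p of 0.05. Class II presentation genes, which show peptides from outside the cell, had a median of -0.19 over 11 members tested, with 0 at that p in either direction.

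The summed markers of other cells that could also carry these transcripts were as follows. Over 11 border macrophage markers the sum was 15.6 to 580 CPM in BCAS and 80 to 779 CPM with ND-Exos, and BCAS replicate 2 was the lowest. Over the 8 monocyte markers with values it was 0 to 18.2 and 0.0357 to 26 CPM, with 2 members at 0 in every BCAS library and 4 in every ND-Exos library. Over the 11 endothelial markers it was 468 to 699 and 483 to 766 CPM, with 5 members under 1 CPM in all 12 libraries. Neutrophil markers had values for 6 of 14 genes, with a sum of 148 to 640 CPM in BCAS (median 477) and 197 to 425 CPM with ND-Exos (median 294). Of the 6, 5 were under 1 CPM in all 12 libraries, so this sum is almost wholly that of a single gene, Csf3r, and does not measure neutrophils. BCAS replicate 2 had the lowest sum of the 12, and of the 2 neutrophil markers tested Csf3r was lower with ND-Exos at an unadjusted p under 0.05. The part of any of these other cells in the interferon and class I values was not tested.

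**Figure D3:**
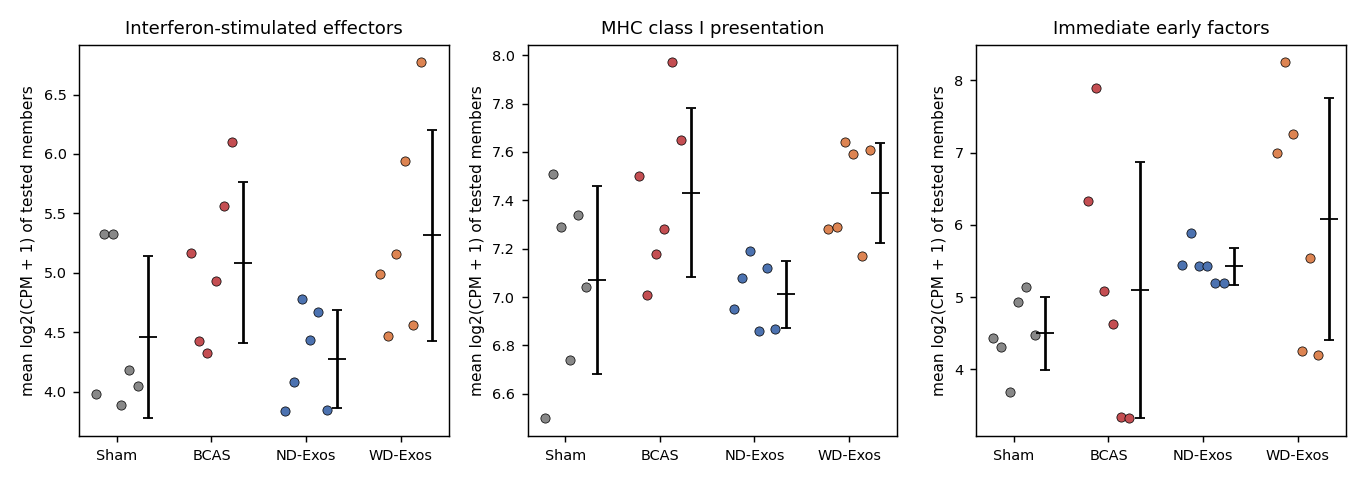
Mean log2(CPM + 1) over the tested members of 3 gene lists (vertical axes, which do not start at 0) in each library, by group, in replicate order; cross bar and whiskers are mean ± SD of 6 libraries. The ND-Exos libraries are close together for the class I and immediate early lists (SD 0.14 and 0.25), where BCAS libraries spread (SD 0.35 and 1.78).

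By library, the mean log2(CPM + 1) of the interferon-stimulated effectors was 3.84 to 4.78 with ND-Exos and 4.33 to 6.10 in BCAS. The groups overlapped through BCAS replicates 2 and 3 (4.43 and 4.33). Sham libraries stood at 3.89 to 5.33 and WD-Exos libraries at 4.47 to 6.77. For the class I list the ranges were 6.86 to 7.19 with ND-Exos and 7.01 to 7.97 in BCAS.

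Ncf1, the organiser subunit of the NADPH oxidase that makes superoxide, ran from 373 CPM through a median of 566 to 705 CPM in BCAS and from 185 through 256 to 524 CPM with ND-Exos. ND-Exos replicate 5 alone lay inside the BCAS range, and the log2 fold change was -0.91 (SE 0.23, edgeR adjusted p = 0.577). Without that library the Ncf1 log2 fold change was -1.16 and passed the threshold (adjusted p = 0.0197). The other 7 oxidase subunits tested did not reach an unadjusted p of 0.05. Fcer1g and Tyrobp, adaptors that carry the signal of Fc receptors and of Trem2, stood at 2916 ± 248 and 4025 ± 652 CPM in BCAS and at 2352 ± 518 and 3171 ± 431 CPM with ND-Exos. Their log2 fold changes were -0.31 (SE 0.13) and -0.34 (SE 0.12), with adjusted p of 0.903 and 0.577. Unc93b1, which carries nucleic acid sensing Toll-like receptors to endosomes, stood at 911 ± 286 and 588 ± 293 CPM. The list of Toll-like receptors and adaptors had a median of -0.21 over 25 members, which was 0.06 with the replicate block.

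Of 23 genes of lysosomal membrane proteins, glycosidases and progranulin, 14 were lower (median -0.14). At an unadjusted p under 0.05, 3 (13%) were lower, against 2.09% of all genes tested. Among all genes of at least 100 CPM, 79 of 1423 were lower at that p. The count of 3 became 5 without BCAS replicate 2 or without ND-Exos replicate 6. Grn, which codes for progranulin, a lysosomal and secreted protein, ran from 1557 CPM through a median of 3141 to 3458 CPM in BCAS and from 1532 through 1920 to 2571 CPM with ND-Exos. BCAS replicate 2 alone put the BCAS range over that of ND-Exos (log2 fold change -0.52, SE 0.16, adjusted p = 0.577). Psap, the precursor of the saposins that activate sphingolipid breakdown and a partner of progranulin, stood at 2466 ± 612 and 1854 ± 351 CPM. The lysosomal mannosidase Man2b1 stood at 2466 ± 1039 and 1391 ± 400 CPM (log2 fold change -0.83, SE 0.25, adjusted p = 0.577).

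The cathepsins, lysosomal proteases, had a median of -0.15 over 14 genes with their inhibitors. Ctsd, which codes for cathepsin D, was the only one at an unadjusted p under 0.05, at 20449 ± 5620 CPM in BCAS and 15460 ± 4580 CPM with ND-Exos. BCAS replicate 2 was the lowest of the 12 libraries for Ctsd (9257 CPM) and Man2b1 (746 CPM), as it was for Csf1r. The vacuolar proton pump (median 0.04 over 17 genes), autophagy (-0.07 over 28) and endosomal sorting (-0.08 over 25) lists had 1 or 2 members each at that p.

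In central metabolism, Cs had the smallest p after the 2 called genes. It codes for citrate synthase, the enzyme that brings acetyl groups into the tricarboxylic acid cycle. Its level ran from 134 CPM through a median of 199 to 244 CPM in BCAS and from 55.4 through 101 to 138 CPM with ND-Exos. ND-Exos replicate 5 alone lay inside the BCAS range, just above its lowest library, and the log2 fold change was -0.99 (SE 0.23, adjusted p = 0.492), -1.11 to -0.87 without any 1 library. Sham and WD-Exos stood at 175 ± 36.3 and 159 ± 44.5 CPM, so ND-Exos was the group with the lowest mean.

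The list around Cs was split. Of 29 genes of pyruvate dehydrogenase and the cycle, 12 were higher and 17 lower (median -0.03), and at an unadjusted p under 0.05 there were 2 in each direction. Dlat, the acetyl-transferring subunit of pyruvate dehydrogenase, stood at 27.3 ± 21.9 CPM in BCAS and 1.18 ± 2.41 CPM with ND-Exos. Sdhb, an iron-sulfur subunit of succinate dehydrogenase, stood at 144 ± 28.7 and 209 ± 87.3 CPM. Complex I of the respiratory chain had 24 of 37 subunit genes higher (median 0.09), and complexes III to V 19 of 37 (median 0.00) with 0 at that p. In complex I, Ndufab1, the acyl carrier protein of mitochondria, stood at 44.8 ± 16.9 and 79.9 ± 12.9 CPM. Mitochondrial large ribosomal subunit genes were split 25 to 24, with Mrpl18, Mrpl24 and Mrpl35 higher at that p.

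Glycolysis (median -0.12 over 21 genes), fatty acid oxidation (0.01 over 21), sterol and fatty acid synthesis (0.11 over 22), mitochondrial dynamics (0.10 over 23) and mitochondrial import (-0.03 over 24) had 0 members at an unadjusted p under 0.05. Outside the glycolysis list, Pfkfb4, which sets the level of the glycolytic activator fructose 2,6-bisphosphate, did not overlap between the groups. It ran from 48.5 to 158 CPM in BCAS and from 0 to 48.3 CPM with ND-Exos (log2 fold change -2.22, SE 0.73, adjusted p = 0.577).

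**Figure D4:**
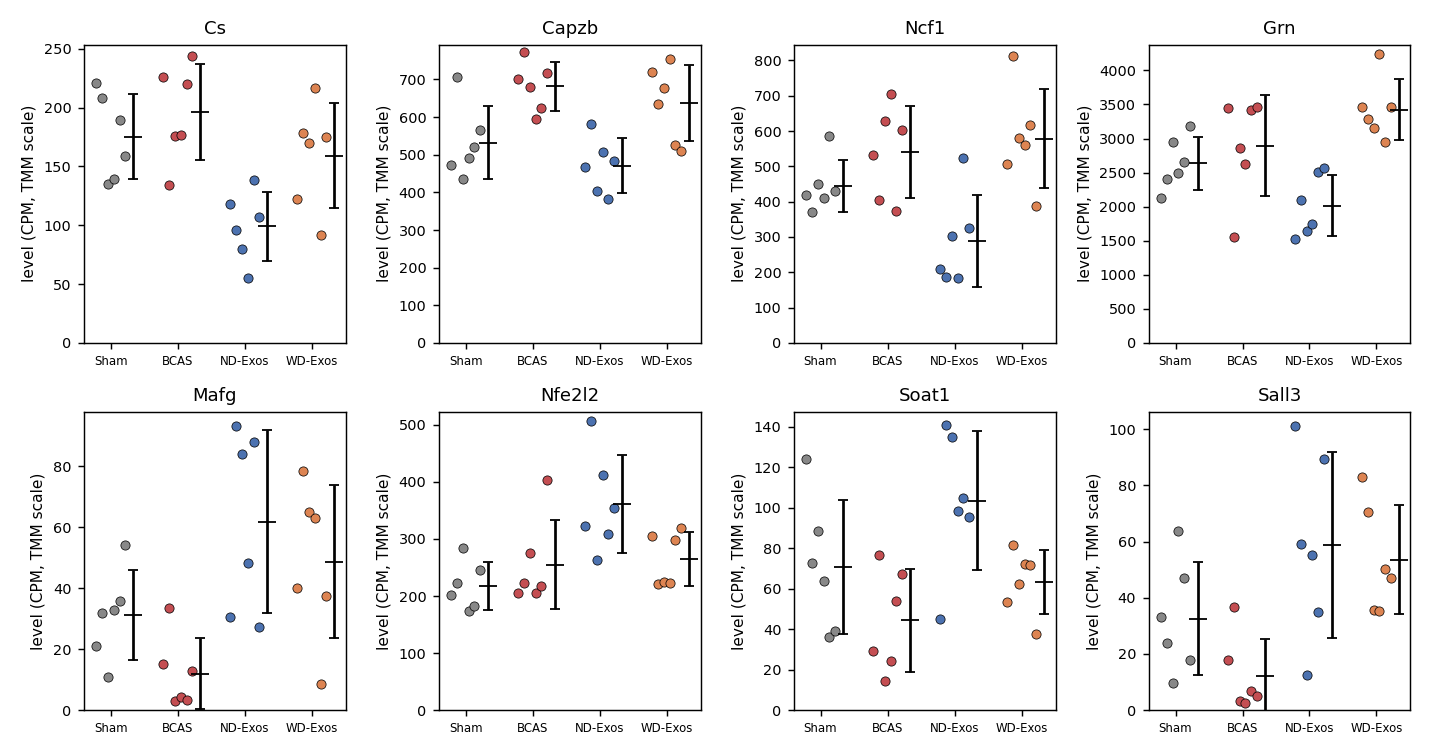
Levels in CPM (vertical axes start at 0) of 8 genes named in the text in each library, by group, in replicate order; cross bar and whiskers are mean ± SD of 6 libraries, and a whisker that would pass below 0 is cut there. All 6 ND-Exos points of Capzb lie below every BCAS point, as do 5 of 6 for Cs and Ncf1, and for Grn, Mafg, Nfe2l2, Soat1 and Sall3 the groups overlap.

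Nfe2l2 codes for the factor that, with a small Maf protein as partner, binds antioxidant response elements, and Mafg is one of those partners. Nfe2l2 ran from 205 CPM through a median of 220 to 404 CPM in BCAS and from 263 through 338 to 506 CPM with ND-Exos. BCAS replicate 6 was the single high library of its group, and 2 of 6 ND-Exos libraries lay above it (log2 fold change 0.50, SE 0.19, adjusted p = 0.617). Mafg ran from 3.12 through 8.62 to 33.4 CPM and from 27.3 through 66.2 to 93.2 CPM. In 4 of 6 ND-Exos libraries it was above every BCAS library (log2 fold change 2.36, SE 0.61, adjusted p = 0.577), with values of 2.18 to 3.00 without any 1 library. Of the 19 genes of this list tested, 12 were higher (median 0.30). At an unadjusted p under 0.05, 3 (Mafg, Nfe2l2 and Srxn1, 15.8%) were higher, against 2.38% of all genes tested. The count of 3 fell to 1 with only genes of at least 100 CPM and reached 5 without a filter on low counts, with DESeq2 or without BCAS replicate 4. Srxn1, which repairs oxidised peroxiredoxins, was listed at 0 in every BCAS library and at 0 to 10.9 CPM with ND-Exos. Txn1, thioredoxin, stood at 57.8 ± 16.6 and 91.9 ± 32.5 CPM.

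Among genes of lipid handling, Soat1, which esterifies cholesterol for storage in droplets, ran from 14.4 CPM through a median of 41.6 to 76.7 CPM in BCAS and from 45.2 through 102 to 141 CPM with ND-Exos. It was above every BCAS library in 5 of 6 ND-Exos samples (log2 fold change 1.22, SE 0.38, adjusted p = 0.577). Lpl, lipoprotein lipase, stood at 66.0 ± 33.9 and 120 ± 44.2 CPM. The other genes of cholesterol efflux and liver X receptors (median 0.17 over 15) and of lipid uptake and droplets (median -0.42 over 15, and 0.27 with only genes of at least 100 CPM) did not reach an unadjusted p of 0.05. Pon3, a lactonase that protects lipids from oxidation, stood at 210 ± 26.9 and 316 ± 77.1 CPM, with 5 of 6 ND-Exos libraries higher than any BCAS library.

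The genes of this and the next paragraph were named for their small p, not from a list, and are set together by known role. Capzb, a subunit of the protein that caps actin filaments, did not overlap between the groups. It ran from 595 through 690 to 773 CPM in BCAS and from 382 through 476 to 582 CPM with ND-Exos (log2 fold change -0.53, SE 0.14, adjusted p = 0.577). Arhgdia, which holds small GTPases of cytoskeletal control inactive in the cytosol, stood at 648 ± 221 and 297 ± 184 CPM, and Arhgap1, which turns such GTPases off, at 115 ± 47.2 and 46.5 ± 27.8 CPM. Mapre1, which binds growing microtubule ends, stood higher, at 432 ± 78.9 CPM with ND-Exos and 291 ± 68.5 CPM in BCAS. So did Cct5 and Cct8, subunits of the chaperonin that folds actin and tubulin. Cct5 stood at 320 ± 71.9 against 229 ± 26.7 CPM and Cct8 at 321 ± 85.7 against 187 ± 68.9 CPM, each with 5 of 6 ND-Exos libraries higher than any BCAS library.

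Sec62, which helps to move new proteins into the endoplasmic reticulum, did not overlap between the groups, at 56.5 to 123 CPM in BCAS and 140 to 186 CPM with ND-Exos (log2 fold change 0.84, SE 0.24, adjusted p = 0.577). Stt3a, which attaches sugar chains to these proteins, stood at 173 ± 50.8 and 280 ± 99.4 CPM. Sel1l, a part of the complex that removes misfolded proteins, stood at 39.8 ± 11.1 and 80.1 ± 29.5 CPM. The list of endoplasmic reticulum and integrated stress response genes had 8 of 19 genes higher and 11 lower (median -0.15, and 0.17 without BCAS replicate 2), with 0 at an unadjusted p under 0.05. Of the remaining genes with the smallest p, the kinase Gsk3b stood at 118 ± 23.9 CPM in BCAS and 177 ± 41.1 CPM with ND-Exos. Cltc, the clathrin heavy chain of endocytic coats, stood at 304 ± 35.4 and 423 ± 118 CPM. The spliceosome protein Snrpb stood at 363 ± 65.7 and 244 ± 56.9 CPM, Eef2k, the kinase that slows translation elongation, at 123 ± 82.0 and 53.1 ± 27.9 CPM, and the co-chaperone Dnajc14 at 120 ± 47.5 and 62.4 ± 29.7 CPM. All had an adjusted p of 0.577 to 0.65.

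At low level, Eme2, a partner of the endonuclease Mus81, had no count in any BCAS library and 0.0724 to 20.4 CPM with ND-Exos. Sham stood at 0.0545 ± 0.133 CPM and WD-Exos at 6.32 ± 6.16 CPM. H4c9, a replication-dependent histone gene, had no count in BCAS and 0.0357 to 3.66 CPM with ND-Exos. Its list had a median of 0.70 over 13 genes, 10 of them higher. That median was 1.21 without BCAS replicate 3 and 1.34 with voom. The cell cycle list had a median of -0.14 over 18 genes, which ran from -0.71 without ND-Exos replicate 4 to 0.51 without BCAS replicate 1 and had the opposite sign in 8 of 22 alternatives, and 0 members at an unadjusted p under 0.05. The lowest ND-Exos values of both genes are a few reads, and amplified reads are not independent molecules.

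Immediate early transcription factors respond within minutes to stimulation and to the handling of cells. By library their mean log2(CPM + 1) was 5.19 to 5.89 with ND-Exos and 3.33 to 7.89 in BCAS, where replicates 1 and 2 lay above every ND-Exos library and the other replicates below. The mean of this score was higher with ND-Exos (5.43 ± 0.25 against 5.10 ± 1.78, SD, n = 6), although 17 of 21 members had a lower fold change (median -0.81). The median turned positive without BCAS replicate 2 (0.57), with that library and ND-Exos replicate 3 both left out (0.52), with the replicate block and with voom (0.66). Atf3 stood at 447 ± 721 CPM in BCAS and 148 ± 44.6 CPM with ND-Exos. Egr2 and Nr4a1, lower at an unadjusted p under 0.05, stood at 15.3 ± 15.9 against 0.446 ± 0.869 CPM and at 1.19 ± 2.84 against 0.0257 ± 0.0629 CPM. The Nr4a1 value rested on BCAS replicate 4 (6.99 CPM).

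Genes by which microglia are recognised had high levels in both groups. P2ry12, a purinergic receptor of resting microglia, stood at 5346 ± 970 CPM in BCAS and 6023 ± 1724 CPM with ND-Exos, and Tmem119 stood at 1852 ± 678 and 1462 ± 318 CPM. Cx3cr1, the fractalkine receptor, stood at 4772 ± 964 and 4645 ± 1180 CPM. The unadjusted edgeR p was 0.366 for P2ry12, 0.16 for Tmem119 and 0.795 for Cx3cr1. Csf1r, the receptor for the growth factor on which microglia depend, ran from 3286 CPM through a median of 11902 to 14715 CPM in BCAS and from 5470 through 6445 to 11559 CPM with ND-Exos. All ND-Exos values lay inside the BCAS range because BCAS replicate 2 was low (log2 fold change -0.55, SE 0.24, adjusted p = 0.917). The list of homeostatic surface genes had a median of -0.03 over 22 genes.

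Microglial identity transcription factors had a median of 0.29 over 15 genes, 11 of them higher. Sall3, a zinc finger factor related to Sall1, was the one at an unadjusted p under 0.05. It ran from 2.37 CPM through a median of 5.90 to 36.7 CPM in BCAS and from 12.5 through 57.2 to 101 CPM with ND-Exos, with 4 of 6 ND-Exos libraries higher than any BCAS library (log2 fold change 2.29, SE 0.63, adjusted p = 0.577). With BCAS replicate 2 and ND-Exos replicate 3 both left out, the Sall3 log2 fold change was 3.29 (adjusted p = 0.0388). BCAS had the lowest mean of the 4 groups for Sall3, with 32.6 ± 20.0 CPM in Sham and 53.6 ± 19.3 CPM with WD-Exos. The same held for Mafg, with 31.2 ± 14.7 and 48.7 ± 25.1 CPM.

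Transcripts of other brain cells were present and uneven. Oligodendrocyte markers, 12 genes of myelin and its cells, summed to 1581 to 6110 CPM in BCAS and 3871 to 8208 CPM with ND-Exos, highest in ND-Exos replicate 3. By mean log2(CPM + 1) of the 9 tested members that library stood much further apart, at 8.53. The other ND-Exos libraries stood at 2.83 to 4.39 and BCAS libraries at 2.92 to 6.05. ND-Exos replicate 4, at 2.83, had a sum of 3900 CPM. A few members therefore carried most of the sum in that library, and the sum does not speak for the list as a whole. Oligodendrocyte precursor markers summed to 146 CPM in ND-Exos replicate 3 and to at most 17.5 CPM in BCAS. The 13 astrocyte markers summed to 54.0 to 248 and 100 to 294 CPM. The 9 mural cell markers with values summed to 0 to 0.149 CPM in BCAS, and with ND-Exos to 26.1 CPM in replicate 3, 16.4 CPM in replicate 5 and at most 0.423 CPM in the other libraries. T and NK cell markers, with values for 5 of 12 genes, summed to at most 0.961 CPM in BCAS and to 33.1 CPM in ND-Exos replicate 3 and 20.1 CPM in replicate 4. The part of these cells in the genes that were higher with ND-Exos at low level was not tested.

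**Figure D5:**
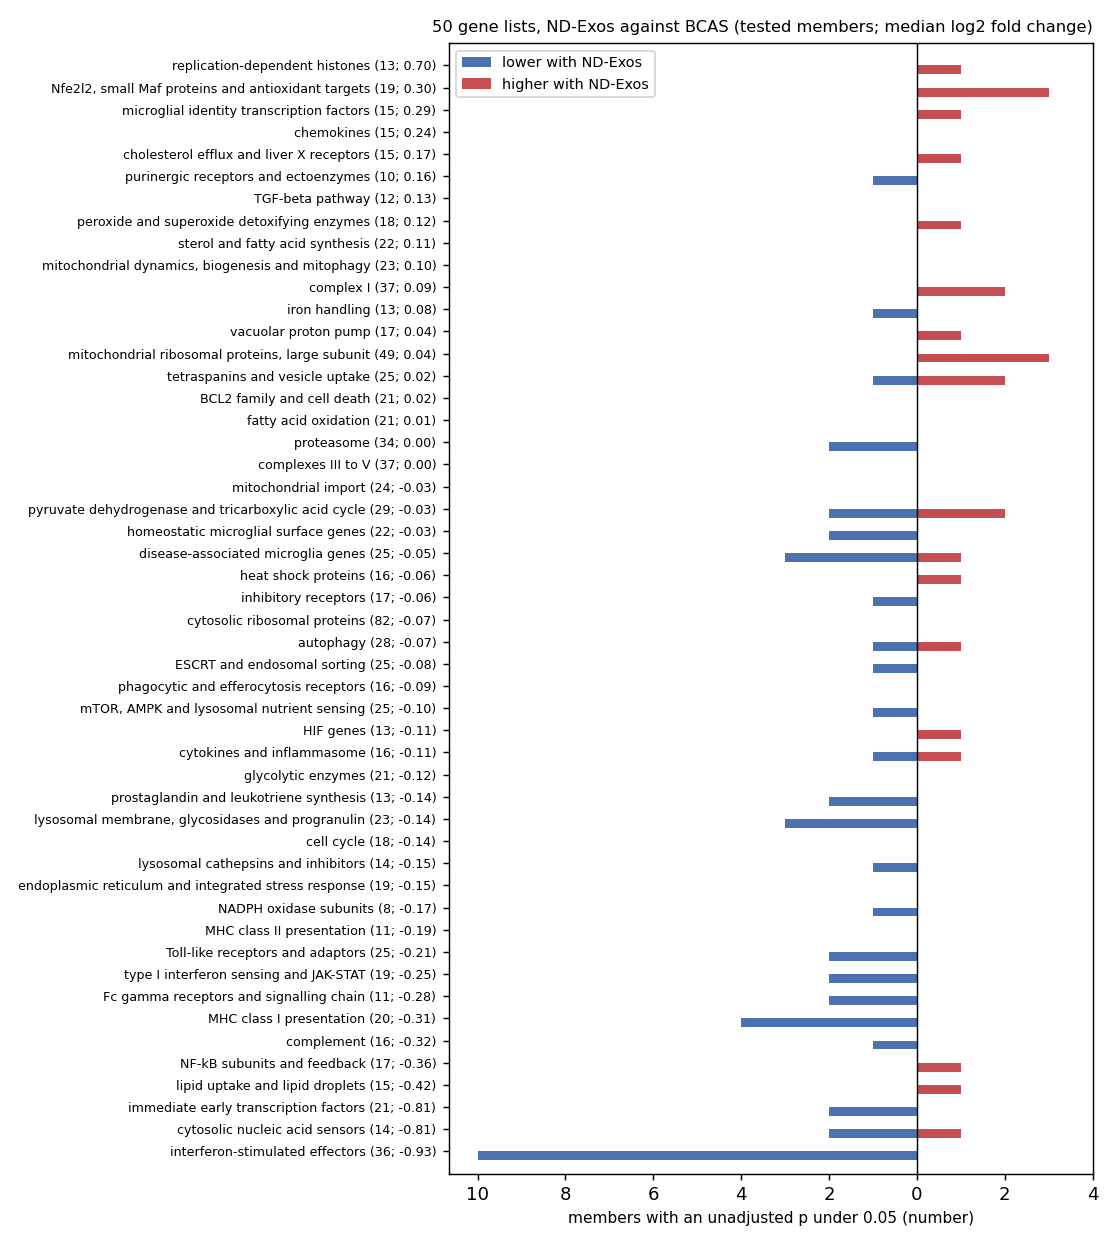
Number of members with an unadjusted edgeR p under 0.05 (horizontal axis, to the left of 0 for lower and to the right for higher with ND-Exos) in each of 50 gene lists, ordered by median log2 fold change; brackets give the tested members and that median. The interferon-stimulated effectors have the longest bar (10 lower), then the class I list (4 lower).

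Over the 50 lists, which share some genes, the interferon-stimulated effectors had the lowest median and the most members at an unadjusted p under 0.05. Of the 50 medians, 26 had the opposite sign in at least 1 of 22 alternatives, and the lists of the interferon-stimulated effectors, the sensors and class I presentation were not among them. Other lists were not either, among them complement, glycolytic enzymes and iron handling, so this does not set the interferon lists apart. A median of 0.00, as for the proteasome (-0.13 to 0.07 over the alternatives), could not be counted as changing sign. The 82 cytosolic ribosomal protein genes had a median of -0.07 with 63 lower (0.04 without BCAS replicate 2), and 0 at that p in either direction. Of 34 proteasome genes, Psme1 and the regulatory subunit gene Psmd11 (166 ± 37.0 against 118 ± 26.2 CPM) were lower at that p. Chemokines (median 0.24 over 15 genes, -0.13 without ND-Exos replicate 5), the TGF-beta pathway (0.13 over 12), phagocytic and efferocytosis receptors (-0.09 over 16) and BCL2 family and cell death genes (0.02 over 21) had 0.

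Whether the effect of WD-Exos differed from that of ND-Exos was tested by comparing the exosome groups directly, since saline cancels from that difference. This comparison shares its ND-Exos libraries with the one above. Of 10219 genes, 2 passed the edgeR test with an adjusted p of 0.05 (0.0196%), and they were again Lgals3bp and Gm20594. At an unadjusted p under 0.05, 297 (2.91%) were higher and 248 (2.43%) lower with WD-Exos. Lgals3bp stood at 923 to 3281 CPM with WD-Exos and 289 to 584 CPM with ND-Exos, without overlap (log2 fold change 2.18, SE 0.30, adjusted p = 0.000522). Gm20594 stood at 185 to 392 and 502 to 865 CPM, also without overlap (log2 fold change -1.21, SE 0.17, adjusted p = 0.000522). Its call was lost when only the 12 libraries of these groups were fitted.

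Other genes stood apart between the exosome groups without passing. Of the 36 interferon-stimulated effectors, 13 were higher with WD-Exos than with ND-Exos at an unadjusted p under 0.05 and 0 lower, with a median of 0.95. Of all genes tested, 2.91% were higher and 2.43% lower at that p. The list was chosen with earlier results known and the same ND-Exos libraries enter both comparisons, so this count is not independent of the one against saline. Ifi27l2a stood at 227 ± 144 CPM with WD-Exos (log2 fold change over ND-Exos 2.37, adjusted p = 0.254). Ncf1 stood at 578 ± 140 CPM with WD-Exos (log2 fold change 1.0, adjusted p = 0.29) and Grn at 3425 ± 445 CPM (0.77, adjusted p = 0.254). For Mafg, Sall3 and Tbk1 the log2 fold changes between the exosome groups were -0.35 (SE 0.58), -0.13 (SE 0.60) and -0.18 (SE 0.34), each with an adjusted p of 1. B2m stood at 12834 ± 3571 CPM with WD-Exos, with a log2 fold change of 0.14 over ND-Exos (adjusted p = 1). Nfe2l2 stood at 265 ± 47.1 CPM (-0.44, adjusted p = 0.78).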

How the data were processed

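RNA of sorted microglia was amplified by Smart-seq2, per the labels' protocols. The authors deposited a table of estimated counts by Entrez gene, without scaling of the libraries; how reads were aligned and counted, and on which build, is not given in the sources used here. Of 22064 identifiers, 6186 were blank in every library, and 15828 of the other 15878 matched a RefSeq symbol (GRCm38.p6). Values, 76.8% of genes being whole numbers in every library, were rounded to counts and fitted over all 24 libraries with 4 group means in edgeR 4.0.16 (R 4.3.3): filterByExpr with a minimum of 10 counts (10219 genes), TMM, robust quasi-likelihood F tests, Benjamini-Hochberg adjustment, threshold 0.05. Levels are CPM on the TMM scale.

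Library totals (24277722 to 28892423 counts) are compared between the groups in the report. The common biological coefficient of variation was 1.45, and its median 0.335 over genes of at least 100 CPM.

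The comparison, gene lists and rules were chosen with earlier results of these data known. Named genes were all past the threshold, the 10 higher and 10 lower of at least 100 CPM and 6 and 6 under it with the smallest p and an established symbol, up to 3 per list, and 5 microglial markers; some of these are not reported here. Bst2, Slfn5, Isg15, Oas1a, Rtp4 and H2-T23 complete printed counts and were named after their values were seen. List scores are means of log2(CPM + 1). The alternatives tried were DESeq2-type size factors, other filters, 12 libraries only, the replicate block, a covariate of detected genes, DESeq2 1.42.0, voom (limma 3.58.1), and leaving out each library; leaving out BCAS replicate 2 with ND-Exos replicate 3 was added after seeing the data. The procedure was tested on simulated data. Transcripts were compared with blastn 2.17.0 against GENCODE vM21, and figures drawn with matplotlib 3.10.9.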

Additional observations from a re-analysis of the deposited data

Results flagged for a closer look

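Lgals3bp and Gm20594 differed between the exosome kinds in a direct test of the difference (edgeR, Benjamini-Hochberg adjustment). The log2 effect of WD-Exos minus that of ND-Exos was 2.18 for Lgals3bp and -1.21 for Gm20594, both with an adjusted p of 0.000522.

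Single libraries lay far from the other 5 of their group, by the share of the range that their gap took up (critical value 0.625). This was so in 22 of 152 groups of values checked (14.5%). That critical value gives about 1 in 20 by chance only for normally distributed values. Many CPM values here are skewed or near 0, so whether 14.5% exceeds chance was not tested. BCAS replicate 2 was the low library for Csf1r (3286 CPM), Ctsd (9257 CPM), Arhgap1 (24.2 CPM) and Pon3 (158 CPM). BCAS replicate 6 was the high one for Nfe2l2 (404 CPM), Slfn5 (100 CPM) and Isg15 (16.2 CPM). BCAS replicate 5 was the high one for Ifi204 (183 CPM) and Oas1a (194 CPM), replicate 4 for Nr4a1 (6.99 CPM) and replicate 3 for Fcer1g (3410 CPM), and replicate 3 was the low one for Slfn8 (13.3 CPM). With ND-Exos, replicate 3 was high for Cltc (646 CPM), Eef2k (108 CPM) and the number of genes with a count (10603). Replicate 4 was high for Ifi204 (132 CPM) and Nr4a1 (0.154 CPM), and replicate 5 for Egr2 (2.17 CPM), Psmd11 (167 CPM) and Isg15 (0.398 CPM). Replicate 2 was high for Dlat (6.02 CPM) and for the immediate early score (5.89).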

How the results depend on the processing

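In ND-Exos against BCAS the count of 2 genes was the same with size factors of the DESeq2 type, 3 other filters on low counts, 12 libraries only and the replicate block. Voom called 1 and the covariate of detected genes 1 (Gm20594 in both), DESeq2 called 512 (305 higher, 207 lower), and leaving out 1 library called 1 to 3. In WD-Exos against ND-Exos the count of 2 became 12 with only genes of at least 100 CPM, 1 with 12 libraries only, 477 with DESeq2, 4 with voom, 2 to 5 without 1 library (5 without ND-Exos replicate 5) and 5 without BCAS replicate 2 and ND-Exos replicate 3. That setting called 3 genes in ND-Exos against BCAS, with Sall3 added. Of 71 genes followed over 22 alternatives, 70 kept their direction. The exception, Cx3cr1 (-0.04), was 0.07 with the covariate, 0.07 without BCAS replicate 4, 0.08 without ND-Exos replicate 3 (-0.13 to 0.08 without any 1 library) and 0.03 without the 2 libraries that stood apart; the cause was not tested. Of these 71 genes, DESeq2 called 25 that edgeR did not. Same-numbered libraries did not deviate together over genes of at least 100 CPM (correlations -0.29 to 0.147, 1 of 6 above 0.1). Such correlations cannot show whether the numbers carry a batch, and the labels give none. The replicate block gave 2 calls in each comparison. With it the medians of the Toll-like receptor, chemokine and immediate early lists, among others, had the opposite sign. Size factors of the DESeq2 type moved the median of all genes from 0.005 to 0.011.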

Other observations

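Among the genes whose groups did not overlap, several fall outside the rule for named genes and were chosen after their values were seen. Igf1r, the receptor for insulin-like growth factor 1, stood at 7.86 to 65.6 CPM with ND-Exos and 0 to 2.86 CPM in BCAS (log2 fold change 4.07, edgeR adjusted p = 0.615). Gpr35, a receptor of macrophages and gut, stood at 0.603 to 21.9 and 27.9 to 54.1 CPM (-2.92, adjusted p = 0.803). Pafah1b2, a subunit of an enzyme that breaks down platelet-activating factor, stood at 12.8 to 37.7 and 41.4 to 96.5 CPM (-1.15, adjusted p = 0.754). Higher as well were Lig3, the DNA ligase of mitochondria (0.143 to 36.8 against 0 to 0.107 CPM), the remodeller gene Chd3 (3.78 to 16.5 against 0 to 1.67 CPM), Qser1, Spc24 and Gm51415. Lower were Zfp444 (0 to 4.09 against 10.9 to 31.1 CPM), Nudt19 (1.87 to 27.1 against 27.2 to 68.6 CPM) and Mrpl36 (16.4 to 38.8 against 41.0 to 56.3 CPM). None of these genes passed the adjusted threshold.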
